A study of Mus musculus with 53 samples.

Results

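The cytosolic ribosomal protein genes were followed in single T1 pre-HSCs, type 1 precursors of haematopoietic stem cells. They were taken by symbol from the deposited expression table: names made of Rpl or Rps, a number and an optional paralogue suffix, together with Rplp0, Rplp1, Rplp2 and Rpsa, leaving out names with -ps and the Rps6k kinases. This gave 86 of 14833 genes, 50 of the large and 36 of the small ribosomal subunit. In the RefSeq annotation 82 of them are protein coding, Rps3a2 and Rps3a3 are pseudogenes, Rps4l is a transcribed pseudogene, and Rps12l2 was not matched.

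The cells came from the aorta-gonad-mesonephros (AGM) region of mouse embryos at E11, from which they were sorted. The H19 DMR KO group had 12 cells (KO cells 1 to 12), with the genotype label mH19 delta_DMR/+, in which the differentially methylated region that controls the imprinted H19 locus is deleted. The wildtype group used here had 9 cells (13 to 22 without 19) with the genotype label mH19 flDMR/+, so these controls are labelled with an allele of their own at the same region, which the labels do not explain. The labels name no Cre driver, embryo or litter, so each group counts as 1 sample, cells are not replicates of a genotype, and no difference below carries a test. Values are RPKM, a read density per transcript length and per mapped reads of the cell, as the authors deposited it, and its sequencing depth is unknown.

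Ribosomal proteins are the protein part of the translation machinery: those named Rpl sit in the large subunit, which joins amino acids, and those named Rps in the small subunit, which reads the messenger RNA. A ribosome holds a single copy of nearly all of them, and their messenger RNAs share a pyrimidine tract at the start that couples their translation to growth signals. In blood formation they are known from Diamond-Blackfan anaemia, a human failure of red cell production caused by loss of a copy of such genes, RPS19 most often.

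The cells differed in how much of the transcriptome was seen. Genes at 1 RPKM or more numbered 1517 to 8408 per KO cell (median 3172) and 2067 to 5716 per wildtype cell (median 4176). KO cells 1, 9 and 12 were the lowest of all, and wildtype cell 13 the lowest of its group. H19 did not exceed 186 RPKM in any KO cell and was at 231 RPKM or more in every wildtype cell, so the groups did not overlap in the targeted locus. All 10 pre-HSC and endothelial markers reached 1 RPKM in at least 1 cell of each group, with summed levels of 3.57 to 1186 RPKM among KO cells and 3.91 to 1049 RPKM among wildtype cells. Summed erythroid markers (6 of 9 listed) ranged up to 145 RPKM in KO cells and 239 RPKM in wildtype cells with a median of 0 in both. Hba-a1, Hba-a2, Hbb-bh1 and Hbb-y were at 0 in every wildtype cell, and Hbb-bs in every KO cell. Macrophage markers (5 of 8 listed) ranged up to 700.5 RPKM in KO cells (median 10.1) and 1951 RPKM in wildtype cells (median 71.8). Mesenchymal markers (8 of 8 listed) ranged up to 685 RPKM in KO cells (median 5.44) and 243 RPKM in wildtype cells (median 0.648), and epithelial markers (2 of 5 listed) up to 479 RPKM in KO cells (median 8.55) and 520.1 RPKM in wildtype cells (median 121). Summed cycling markers (6 of 6 listed) were at 0 to 390 RPKM in KO cells (median 204.9) and 41.4 to 1108 RPKM in wildtype cells (median 327). The part of these other transcripts in the results below was not tested.

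Wildtype cell 19 was left out. Across the 263 rows of the table around the Rpl and Rps names, its values correlated with the mean of the other cells at r = -0.031 as deposited and at 0.979 when read 1 row away. The other 21 cells were in step with their rows, with r between 0.796 in KO cell 1 and 0.983 in wildtype cell 22.

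Ribosomal protein genes were among the most abundant transcripts of both groups. Wherever 3 values are given for a group below, they are its lowest cell, its median and its highest cell. Rpl41, the smallest protein of the ribosome, had the highest mean of all members. It was at 5671, 10083 and 21021 RPKM in KO cells, against 5872, 10118 and 12805 RPKM in wildtype cells. All 9 wildtype cells lay within the range of the KO cells, KO cells 10 and 12 lay above every wildtype cell, and Rpl41 was the highest member in 6 of 12 KO cells and 6 of 9 wildtype cells. It was also the steadiest member, with an SD of 0.40 over the 21 cells on the log2(RPKM + 1) scale.

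Rpl35, a large-subunit protein near the exit tunnel of the growing chain, followed at 3353, 6096 and 12736 RPKM in KO cells, against 5399.8, 6862 and 12333 RPKM in wildtype cells. Rpl32 was at 57.1, 7275 and 13848 RPKM in KO cells, against 3435, 6011 and 9633 RPKM in wildtype cells, and its KO minimum came from KO cell 11. These large-subunit genes, with Rpl36 and Rpl13a, made up 29.5% of the summed large-subunit RPKM.

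In the small subunit, Rps19, needed to mature the RNA of that subunit, was highest at 151, 8381 and 13169.8 RPKM in KO cells, against 1558, 6294 and 10622 RPKM in wildtype cells. KO cell 1 and wildtype cell 13 were its lowest cells. Rps29 was at 1350.0, 7456 and 13134 RPKM in KO cells, against 1816, 6378 and 9991 RPKM in wildtype cells, and Rps26, which lines the channel where messenger RNA leaves, at 1625, 6287 and 17053 RPKM in KO cells, against 3797, 5658 and 7952 RPKM in wildtype cells. KO cell 1, low for Rps19, held the highest Rps26 value. Rps27, a zinc finger protein, was at 979, 5808 and 8176 RPKM in KO cells, against 4984, 6119 and 8944 RPKM in wildtype cells. With Rps18 these genes took 36.9% of the summed small-subunit RPKM.

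**Figure D1:**
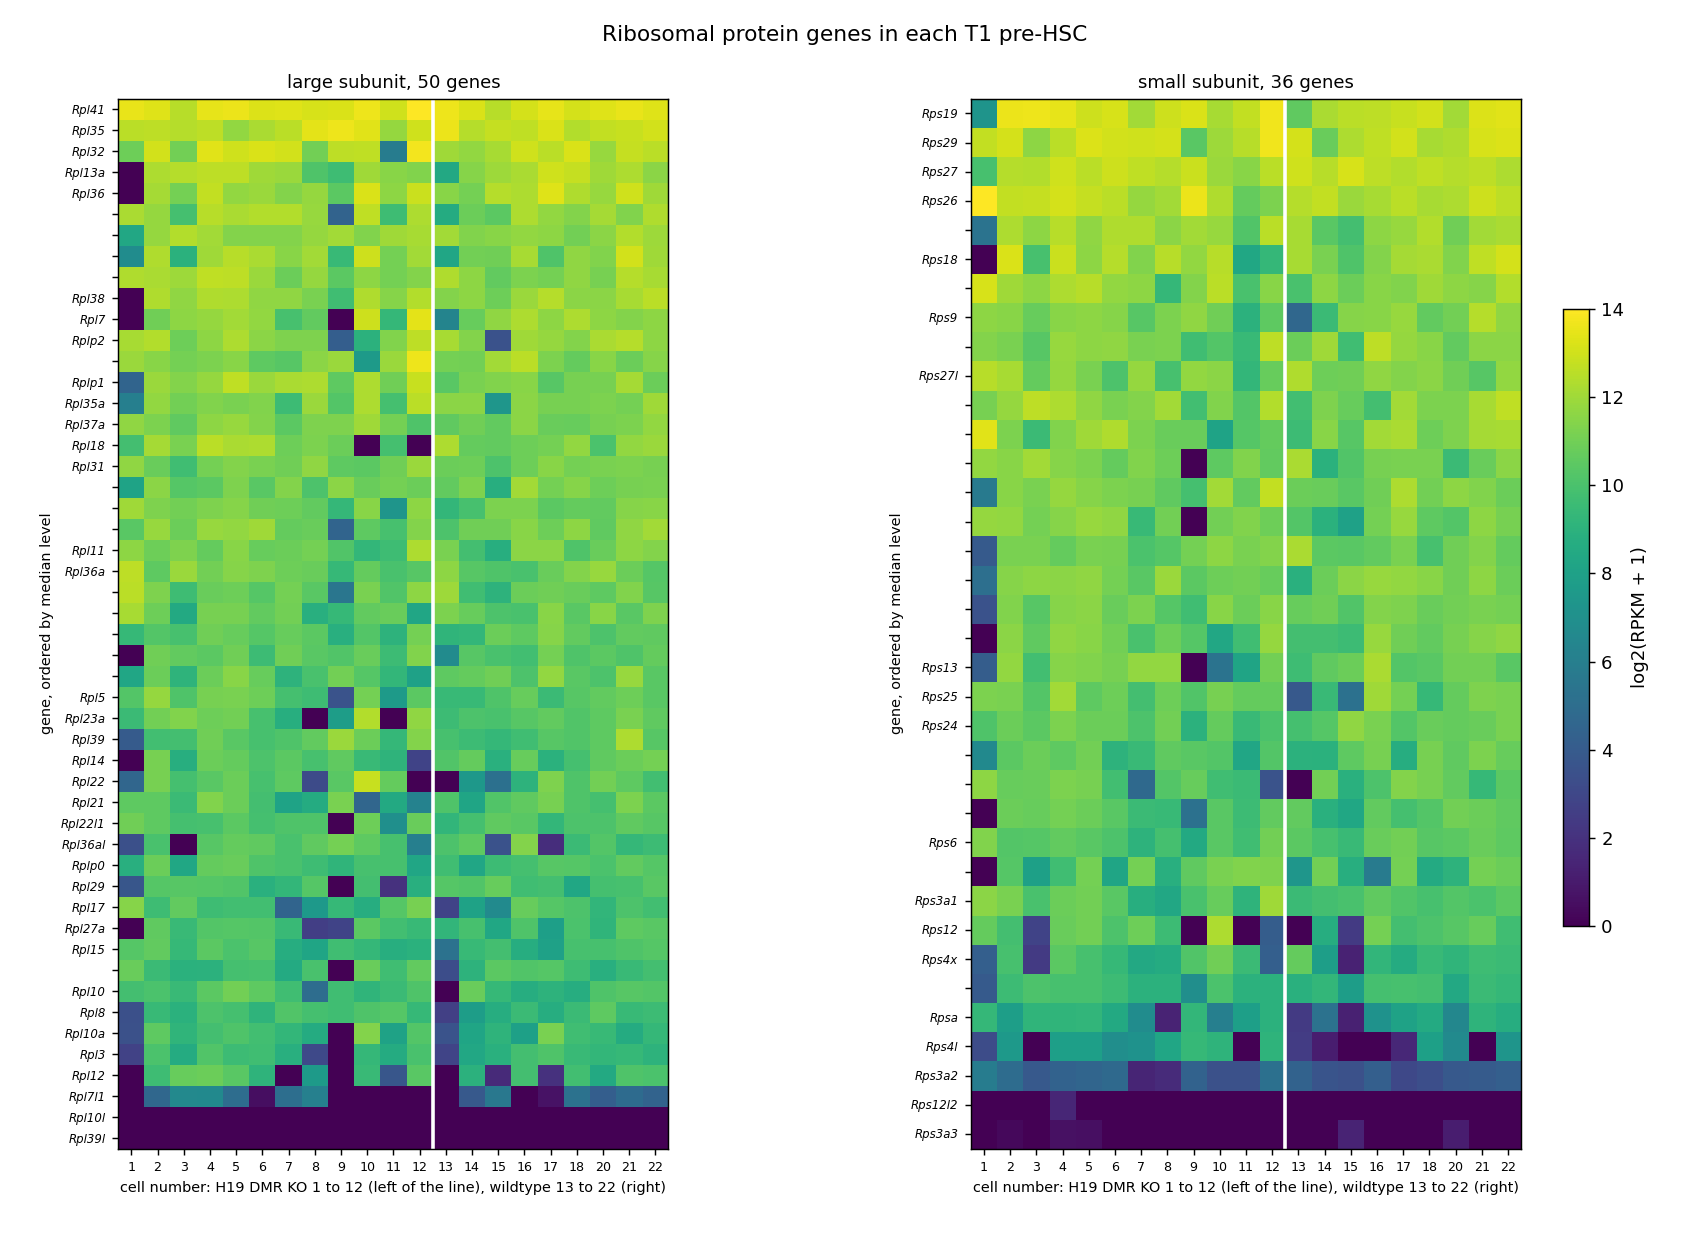
Heat map of log2(RPKM + 1) for the 50 large-subunit genes (left) and 36 small-subunit genes (right), ordered by median level, in KO cells 1 to 12 and wildtype cells 13 to 22 (without 19), separated by a white line; some rows carry no gene name. Dark squares, values near 0, gather in the columns of KO cells 1 and 9 and wildtype cell 13, while Rpl41 is bright in every column.

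The promoters of 62 of the 86 members were found in the RefSeq table (GRCm38.p6, the assembly behind mm10), 73 in all. In the 250 bases before to 50 after the start, CCGGAAG, the core bound by ETS factors such as GABP, was present on either strand in 37.0% of members' promoters and 8.86% of all 32851 promoters. AAGATGG, the core bound by YY1, was present on either strand in 16.4% of members' promoters and 6.34% of all. CTTTC, on the gene's strand within the 20 bases around the start, as in a pyrimidine tract, was in 15.1% of members' promoters and 2.44% of all. CCGGAAG was in 41.3% of promoters of constant members, those at 1 RPKM or more in all 21 cells (19 of 46). It was in 29.6% of promoters of the other members, here called dropped-out (8 of 27). The other 2 motifs went the other way: AAGATGG was in 15.2% of constant and 18.5% of dropped-out members' promoters. CTTTC was in 13.0% and 18.5%. CCGGAAG and AAGATGG can share the letters AAG. A match is a description of letters and not a bound site. The 6 promoters below (100 bases before to 20 after the start) show the highest and steadiest genes, a paralogue pair and 2 genes whose detection had gaps. Capitals mark these 3 motifs.

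Rpl41, chr10:128549149-128549268, minus strand: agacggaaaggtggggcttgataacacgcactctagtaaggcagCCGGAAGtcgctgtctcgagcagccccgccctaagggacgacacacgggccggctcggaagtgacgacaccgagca

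Rpl35, chr2:39005112-39005231, minus strand: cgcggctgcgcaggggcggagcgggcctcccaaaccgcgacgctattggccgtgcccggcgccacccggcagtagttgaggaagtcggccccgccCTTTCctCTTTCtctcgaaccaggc

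Rps27, chr3:90213629-90213748, minus strand: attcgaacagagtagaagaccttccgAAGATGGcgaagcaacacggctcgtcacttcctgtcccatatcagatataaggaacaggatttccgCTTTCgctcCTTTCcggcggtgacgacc

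Rps27l, chr9:66945986-66946105, plus strand: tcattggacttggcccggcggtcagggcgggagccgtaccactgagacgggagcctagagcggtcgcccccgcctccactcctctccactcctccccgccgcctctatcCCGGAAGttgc

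Rpl22l1, chr3:28805408-28805527, plus strand: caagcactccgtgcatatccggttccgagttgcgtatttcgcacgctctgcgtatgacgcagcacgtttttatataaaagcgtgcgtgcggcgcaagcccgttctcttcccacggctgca

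Rpl18, chr7:45717971-45718090, plus strand: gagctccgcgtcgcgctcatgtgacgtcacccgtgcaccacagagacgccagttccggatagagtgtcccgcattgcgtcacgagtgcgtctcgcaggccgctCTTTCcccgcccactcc

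Rpl41, the steadiest gene, has CCGGAAG before its start. Rpl35 and Rps27 have CTTTC at their starts, and Rps27 has AAGATGG upstream, while this start of Rps27l has CCGGAAG just after it. Rpl18, at 0 in KO cells 10 and 12, has CTTTC at its start. Rpl22l1, at 0 in KO cell 9, has none of the 3 motifs in the printed stretch. Stretches of the same length from Rpl12, Rpsa and another start of Rps27l, not printed, have none of the 3 motifs either. That of Rps25, also not printed, has CCGGAAG.

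A few members known from blood disease and growth control are given here, picked after their values were seen. Rpl5 and Rpl11, which together with a small ribosomal RNA hold back the p53 inhibitor MDM2, were both constant. Rpl5 was at 11.2, 1306 and 3536 RPKM in KO cells, against 687, 1302 and 1939.7 RPKM in wildtype cells, and Rpl11 at 611, 1878 and 4978 RPKM in KO cells, against 439, 2303 and 3092 RPKM in wildtype cells. Their differences of mean log2(RPKM + 1), KO minus wildtype, were -0.37 and 0.081. Rps6, the target of the Rps6k kinases, was at 367, 1231 and 2581 RPKM in KO cells, against 721, 1439 and 2085 RPKM in wildtype cells, a difference of -0.31. Rps24 and Rpl35a, each mutated in some human patients with Diamond-Blackfan anaemia, were constant as well. The disease genes among the members were not all gone through, so this does not describe such genes as a set. Rps24 was at 518, 1535 and 2422 RPKM in KO cells, against 937, 1752 and 3227 RPKM in wildtype cells, and Rpl35a at 65.4, 2454 and 6057 RPKM in KO cells, against 162, 2398 and 4171 RPKM in wildtype cells. The groups overlapped for both genes, and their differences were -0.34 and -0.20. KO cell 1 was the lowest cell for Rpl35a.

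The summed share of ribosomal protein genes in a cell's RPKM overlapped between the groups. It averaged 19.4% ± 4.06 in KO cells and 18.8% ± 2.82 in wildtype cells (SD over 12 and 9 cells), a difference of 0.557 percentage points that is smaller than either SD. It was 3.78 percentage points with only the 4 KO cells whose number of detected genes reached the wildtype median. All 9 wildtype cells were kept there, so the groups were not matched in detected genes. KO cells ranged from 12.7 to 24.6%, and wildtype cells from 14.6 to 22.9%. Large-subunit genes took 11.0% ± 2.78 in KO cells and 10.8% ± 1.51 in wildtype cells. Small-subunit genes took 8.36% ± 1.56 in KO cells and 8.01% ± 1.37 in wildtype cells. Named ribosomal protein pseudogenes (-ps), which can draw reads from the members, held between 0.286 and 0.753% in KO cells, against between 0.217 and 0.618% in wildtype cells.

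The balance of the subunits does not depend on a cell's total. The log2 ratio of summed large-subunit over small-subunit RPKM was 0.38 ± 0.23 in KO cells and 0.44 ± 0.097 in wildtype cells (SD over cells), a difference of -0.057. Taken as the median log2 level over the members of each subunit, large minus small was -0.082 in KO cells and -0.141 in wildtype cells. The difference between the groups was then 0.059, of the opposite sign. All 21 cells had more summed large-subunit RPKM, but the sums run over 50 large-subunit and 36 small-subunit genes. By the ratio of sums, KO cells ranged from 0.10 to 0.84 and wildtype cells from 0.23 to 0.60. The wildtype cells thus lay inside the KO range. KO cells 1, 3 and 9 were lowest and KO cells 10 and 12 highest.

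**Figure D2:**
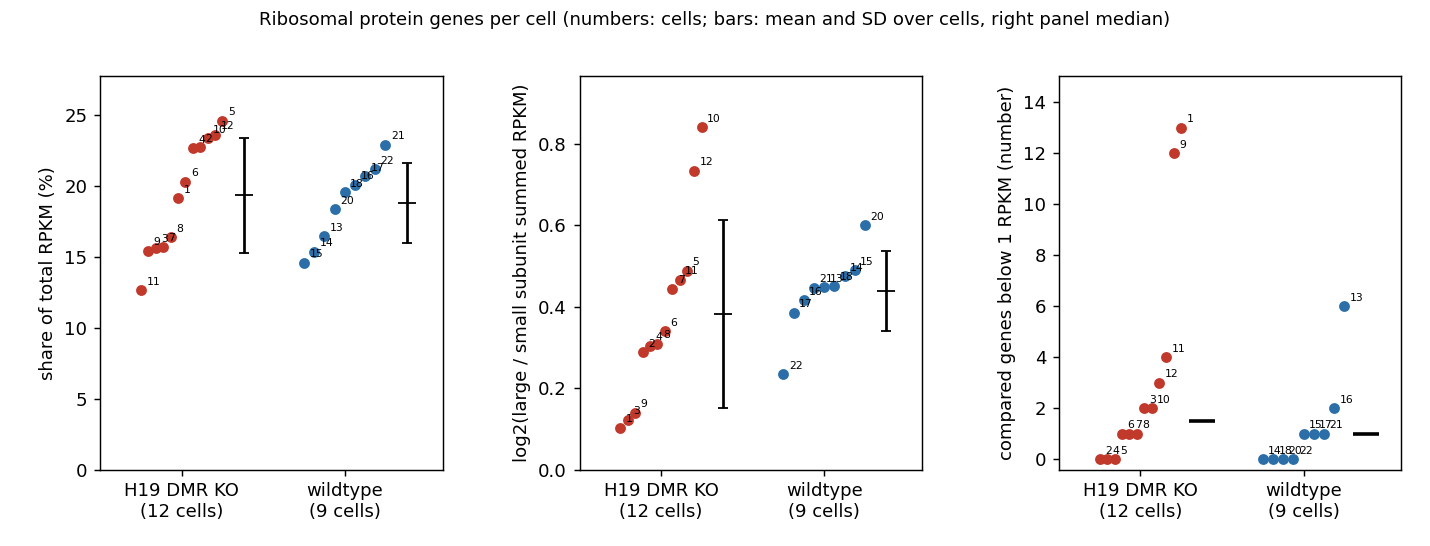
Per-cell values in H19 DMR KO cells (red, 12 cells) and wildtype cells (blue, 9 cells): the share of ribosomal protein genes in total RPKM (left, %), the log2 ratio of large over small subunit (middle) and the number of the 82 compared genes below 1 RPKM (right), each point 1 cell with its number. Bars give the mean and SD over cells, on the right the median; the KO cells span the wildtype cells on the left and in the middle, and KO cells 1 and 9 stand apart on the right.

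Most of the genes were detected without a gap. A gene was called constant when it reached 1 RPKM in all 21 cells, which held for 53 of 86 members (61.6%), against 1.70% of all listed genes. Members made up 21.0% of the 252 constant genes in the table. By subunit, 29 of 50 large-subunit genes (58.0%) and 24 of 36 small-subunit genes (66.7%) were constant. Constant members had a median level of 2122 RPKM over the cells where they were detected, and the compared members that dropped out one of 1396 RPKM. Next to Rpl41 the steadiest constant genes were Rpl37a, a zinc finger protein of the large subunit, with an SD of 0.50, Rpl31 and Rpl35 with 0.52 each, and Rps24 with 0.63. Rpl37a was at 1148, 2491 and 4068 RPKM in KO cells, against 1557, 2028 and 3403 RPKM in wildtype cells. Rpl31 was at 847, 2099.9 and 3832 RPKM in KO cells, against 1107, 2122 and 2897 RPKM in wildtype cells.

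A further 29 genes passed the filter for comparison, a level of 1 RPKM in 50% or more of the KO or of the wildtype cells, but fell below 1 RPKM in at least 1 cell. Most of these genes had a single gap: 21 of the 29 were below 1 RPKM in exactly 1 cell. Of the 1722 values of the 82 compared genes, 50 were below 1 RPKM (2.90%), 39 of 984 in KO cells (3.96%) and 11 of 738 in wildtype cells (1.49%). KO cell 1 had 13 of the 50 and KO cell 9 had 12, together 25, and wildtype cell 13 had 6. Only 3 members were below 1 RPKM in both KO cells 1 and 9: Rpl7, Rpl12 and Rpl7l1. The cells with many gaps were those with few detected genes: over the 21 cells, the number of genes at 1 RPKM or more and the number of compared members below it had a Spearman rho of -0.83, a description of cells that share both counts and total. KO cell 12, with 1796 genes, was below 1 RPKM for 3 members.

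**Figure D3:**
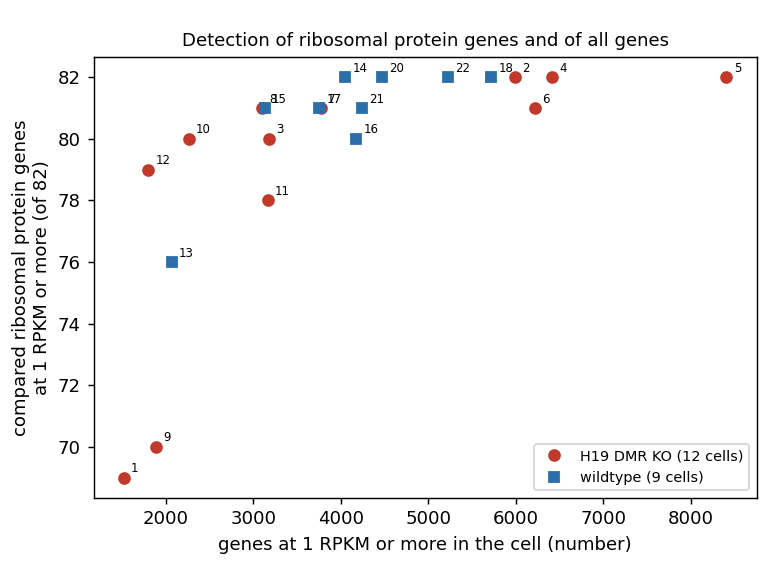
Number of the 82 compared ribosomal protein genes at 1 RPKM or more (vertical) against the number of all genes at 1 RPKM or more (horizontal) in KO cells (circles) and wildtype cells (squares), each with its cell number. KO cell 1 (69 genes) and KO cell 9 (70 genes) lie lowest, wildtype cell 13 (76 genes) next.

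The genes with the most gaps were of several kinds. Rpl12, which forms the base of the stalk that recruits translation factors, was below 1 RPKM in KO cells 1, 7 and 9 and wildtype cell 13. It was at 0, 644 and 1857 RPKM in KO cells, against 0, 513 and 1147 RPKM in wildtype cells. Rps12, of the small subunit, was below 1 RPKM in KO cells 9 and 11 and wildtype cell 13, at 0, 991 and 5055 RPKM in KO cells, against 0, 907 and 2137 RPKM in wildtype cells. Both had a lowest cell at 0 in both groups. In 7 or more of the 21 cells, 5 genes fell below 1 RPKM: the paralogues Rpl10l, Rpl39l, Rpl7l1, Rps12l2 and the pseudogene Rps3a3. Rpl10l and Rpl39l, testis paralogues of the X-linked Rpl10 and Rpl39, were listed at 0 in all 21 cells. Rps12l2 reached 1 RPKM in 1 KO cell and 0 wildtype cells, and Rps3a3 in 0 KO cells and 2 wildtype cells.

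Between the genotypes, most members differed by less than the rule of size used here. The difference of mean log2(RPKM + 1), KO minus wildtype, had a median of -0.19 over the 82 compared members, with quartiles of -0.47 and 0.08, against -0.36 over all 3867 compared genes. It was -0.19 for the 48 large-subunit genes and -0.25 for the 34 small-subunit genes. By a rule of size, not a test, 14 members lay at -1 or lower (17.1%, against 28.0% of all compared genes), and 3 at 1 or higher (3.66%, against 11.4%). With the log2 values of each cell shifted to an equal median, 0 members lay at -1 or lower (against 6.21% of all compared genes) and 35 at 1 or higher (against 42.2% of all compared genes), and the median difference was 0.97 for the members and 0.79 for all compared genes. On the deposited scale the members' median also turned positive with medians over cells (0.045, against -0.33 for all compared genes), with the ratio of mean RPKM (0.11, against -0.012), without KO cells 1 and 9 (0.11, against 0.057) and without the 3 KO cells with fewer than 2000 genes (0.11, against 0.22). The direction of the members' median thus depends on the scaling, on the summary and on these few cells, and the differences that follow are for the mean log2 values as deposited. No member separated the groups, against 0.0517% of all compared genes.

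The 14 lower members were 11 of the large subunit (Rpl29, Rpl18, Rpl23a, Rpl27a, Rpl14, Rpl7, Rpl36, Rpl21, Rpl38, Rpl3 and Rpl13a) and 3 of the small subunit, Rps13 and Rps18 among them. All 14 were at 1 RPKM or more in every wildtype cell, 13 fell below it in at least 1 KO cell, and 11 in KO cell 1 or 9. The difference of the group medians was above -1 for all 14. Without KO cells 1 and 9, an alternative chosen after seeing the data, 3 members lay at -1 or lower (Rpl18, Rpl23a and Rpl21), against 17.2% of all compared genes, and 6 at 1 or higher (Rps4l, Rps25, Rpsa, Rpl12, Rpl8 and Rpl10a), against 20.1%.

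Rpl29, a small basic protein of the large subunit, had the most negative difference. It was at 0, 746 and 1335 RPKM in KO cells, against 327, 964 and 1737 RPKM in wildtype cells. KO cells 1, 9 and 11 were at 12.4, 0 and 2.95 RPKM, and the other KO cells overlapped the wildtype cells. Its mean log2(RPKM + 1) was 7.83 ± 3.70 in KO cells and 9.92 ± 0.67 in wildtype cells (SD over 12 and 9 cells), a difference of -2.09, and -0.90 without KO cells 1 and 9.

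Rpl18, a core protein of the large subunit, was at 0, 2128 and 5908 RPKM in KO cells, against 1055, 2178 and 4990.4 RPKM in wildtype cells. Only KO cells 10 and 12 were at 0, while the highest KO cell exceeded every wildtype cell. Its difference of -1.81 was -2.0 without KO cells 1 and 9. Rpl23a, which sits at the tunnel exit where the signal recognition particle docks, was at 0, 1463 and 5376 RPKM in KO cells, against 775, 1295 and 2365 RPKM in wildtype cells. KO cells 8 and 11 were at 0, and the KO median lay above the wildtype median. Its difference was -1.64, with KO cells 1 and 9 or without them.

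Rps13, a small-subunit protein, was at 0, 2148 and 3387 RPKM in KO cells, against 807, 1529 and 4770.4 RPKM in wildtype cells. KO cell 9 was at 0 and KO cells 1 and 10 below 40 RPKM, and the KO median was the higher. Its difference was -1.75, and -0.37 without KO cells 1 and 9. Rpl27a, Rpl14, Rpl7 and Rps18 had differences of -1.56, -1.54, -1.54 and -1.34, which without KO cells 1 and 9 were -0.25, -0.87, 0.37 and -0.42. Rpl7 thus changed sign. Rpl7 was at 0, 2581 and 10798 RPKM in KO cells, against 79.1, 3201 and 5053 RPKM in wildtype cells. Rps18, which lies in the head of the small subunit, was at 0, 3323 and 9281 RPKM in KO cells, against 1141, 4449 and 8674 RPKM in wildtype cells, and KO cell 1 was its only cell below 1 RPKM. Rpl36, likewise at 0 in KO cell 1 alone, was at 0, 3479.5 and 9519.7 RPKM in KO cells, against 2157, 4978 and 10223 RPKM in wildtype cells. Its difference was -1.29, -0.30 without KO cell 1 and -0.15 without KO cells 1 and 9. Rpl21, the constant member among the 14, was at 23.2, 821 and 2585 RPKM in KO cells, against 296, 1159 and 2442 RPKM in wildtype cells, with KO cells 10 and 12 lowest. Its difference was -1.06, and -1.41 without KO cells 1 and 9.

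Higher values in KO cells were few, and all 3 had small-subunit names, the transcribed pseudogene Rps4l among them. Rpsa, a small-subunit protein also known as the laminin receptor, was at 1.68, 437 and 636 RPKM in KO cells, against 1.41, 140.3 and 552 RPKM in wildtype cells. Its mean log2(RPKM + 1) was 7.81 ± 2.28 in KO cells and 6.34 ± 2.85 in wildtype cells (SD over 12 and 9 cells), a difference of 1.47. Rps25, needed for some kinds of internal ribosome entry, was at 886, 1794 and 4218 RPKM in KO cells, against 14.3, 1657 and 4117 RPKM in wildtype cells, a difference of 1.43. In both genes wildtype cells 13 and 15 were the lowest wildtype cells. Without these cells, another alternative chosen after seeing the data, the differences were 0.18 for Rpsa and 0.059 for Rps25, and only Rps4l, described with the paralogues, lay at 1 or higher.

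The next genes in that direction were Rpl10, which joins late and readies the large subunit, at 0.94, Rpl17 at 0.72, Rpl8 at 0.70, Rpl15 at 0.51 and Rps9 at 0.48. Wildtype cell 13 was the lowest cell for each of these, and without it the differences were -0.14 for Rpl10, -0.0060 for Rpl17, -0.037 for Rpl8, 0.031 for Rpl15 and -0.25 for Rps9. Rpl10 was at 30.5, 855 and 2068 RPKM in KO cells, against 0, 656 and 1805 RPKM in wildtype cells. The X-linked members Rpl10, Rpl36a, Rpl39 and Rps4x had differences of 0.94, 0.094, -0.32 and -0.19, with no common direction.

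Of the stalk, which recruits translation factors to the large subunit, Rplp0, Rplp1 and Rplp2 were constant. Rpl12, at its base, had gaps, as described above. Rplp0 was at 307, 965 and 1836 RPKM in KO cells, against 308, 1057 and 1589 RPKM in wildtype cells, a difference of -0.19. Rplp1 was at 21.5, 3821 and 7159 RPKM in KO cells, against 1313, 2250.1 and 4353 RPKM in wildtype cells, and Rplp2 at 17.4, 2849.8 and 6120.4 RPKM in KO cells, against 10.7, 3528 and 5613 RPKM in wildtype cells. Their differences were 0.15 and -0.066, and the groups overlapped for each.

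**Figure D4:**
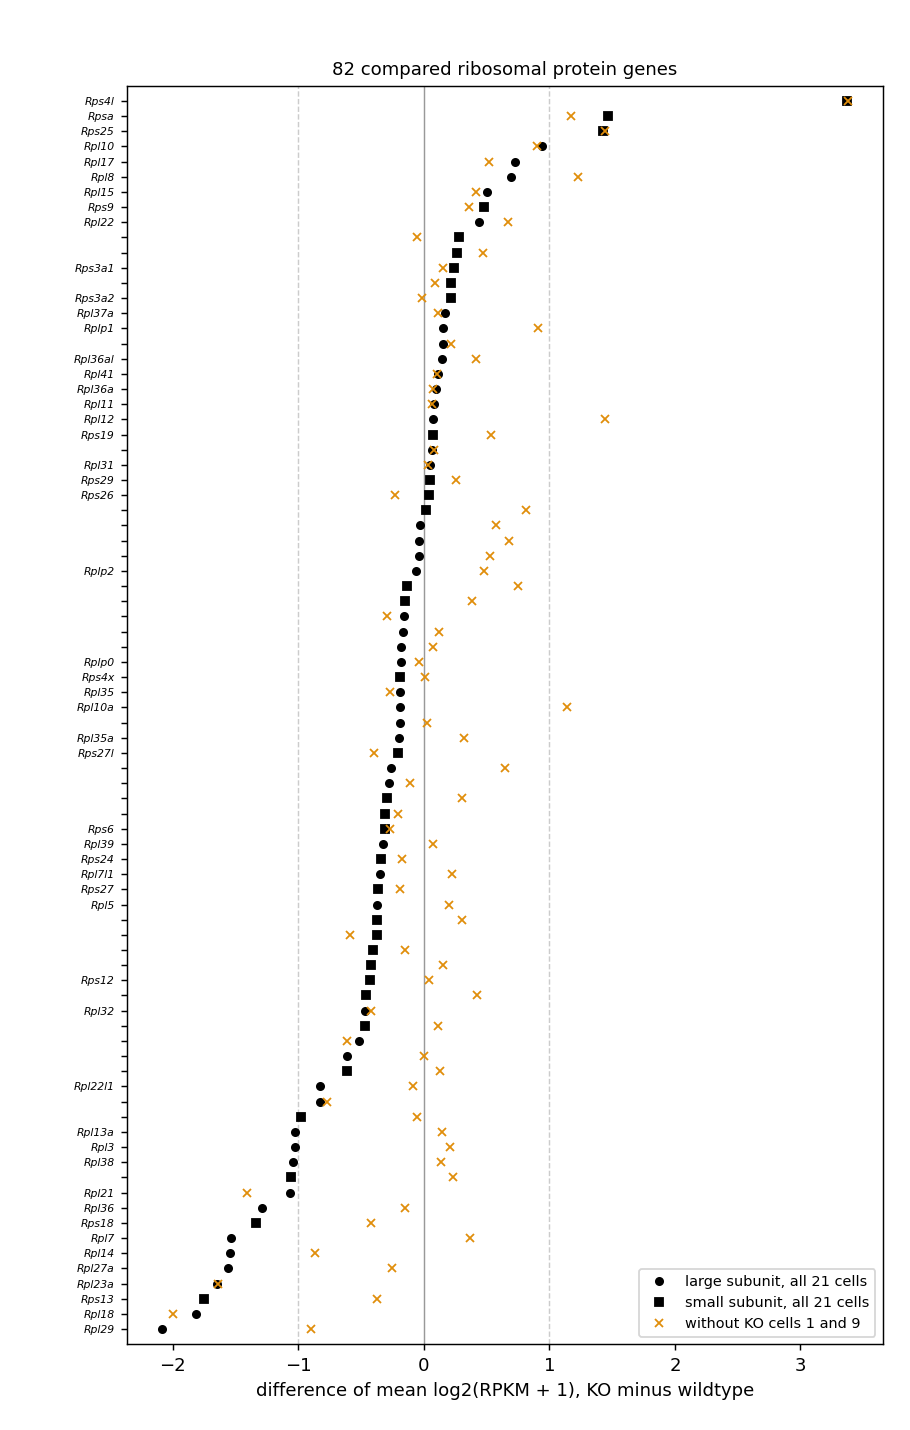
Difference of mean log2(RPKM + 1), KO minus wildtype, for the 82 compared genes with all 21 cells (circles: large subunit, squares: small subunit) and without KO cells 1 and 9 (crosses); some rows carry no gene name. Dashed lines mark -1 and 1; 14 genes lie at or left of -1 with all cells, and 3 without KO cells 1 and 9.

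With all 21 cells, the spread over cells was wider in KO cells for most members. The SD of log2(RPKM + 1) was larger in KO than in wildtype cells for 71 of 82 compared members (86.6%), against 60.7% of all compared genes. Constant members had a median SD of 1.27 in KO cells and 0.71 in wildtype cells, and 44 of 53 were wider in KO cells. Without KO cells 1 and 9 the count was 40 of 82 (48.8%, against 53.8% of all compared genes), and without the 3 KO cells that had fewer than 2000 genes it was 34 (41.5%, against 48.0%). Without wildtype cells 13 and 15 it was 77 (93.9%, against 69.6%), and without these and KO cells 1 and 9 it was 62 (75.6%, against 64.5%). The relative levels of the 53 constant members in a cell correlated with the mean of the other cells at r = 0.296 in KO cell 1 and 0.444 in KO cell 9. The other KO cells lay between 0.655 and 0.939, and the wildtype cells between 0.631 and 0.950.

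Among paralogues, Rps4l had the largest positive difference of all compared members, 3.37. RefSeq lists it as a transcribed pseudogene at chr6:148354656-148355596 (GRCm38.p6), named for its likeness to the Rps4 protein. It was at 0, 214 and 667 RPKM in KO cells, against 0, 1.92 and 244 RPKM in wildtype cells. At 1 RPKM or more it was found in 10 of 12 KO cells (83.3%, exact Clopper-Pearson 95% interval 51.6 to 97.9%) and 6 of 9 wildtype cells (66.7%, exact Clopper-Pearson 95% interval 29.9 to 92.5%), and the intervals cover counting error only. The groups overlapped: KO cells 3 and 11 and wildtype cells 15, 16 and 21 were at 0, and wildtype cells 18, 20 and 22 were above 100 RPKM. The difference lay between 2.14 and 6.20 over the 35 settings tried. Rps4x itself, an X-linked small-subunit protein, was at 4.29, 712 and 2016 RPKM in KO cells, against 1.51, 584 and 1662 RPKM in wildtype cells, a difference of -0.19. Rps4l held a median of 20.5% of the summed Rps4x and Rps4l RPKM in KO cells and 0.49% in wildtype cells. How reads shared by the copies were assigned is not given in the sources used here, so the split between near-identical copies is uncertain, here and in the pairs below.

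Rpl22 and Rpl22l1 code for proteins that can replace each other in the large subunit. Rpl22 was at 0, 1376 and 7318 RPKM in KO cells, against 0, 871 and 2492 RPKM in wildtype cells. Rpl22l1 was at 0, 1126 and 1990.0 RPKM in KO cells, against 584, 1092 and 1527 RPKM in wildtype cells. Rpl22l1 exceeded Rpl22 in 4 of 12 KO cells and 6 of 9 wildtype cells, with a median share of 43.3% of the pair in KO cells and 60.1% in wildtype cells. Rpl22 was at 0 in KO cell 12 and wildtype cell 13 and Rpl22l1 at 0 in KO cell 9, but no cell lacked both: the summed level was at least 1144 RPKM in KO cells and 584 RPKM in wildtype cells. On the log2(RPKM + 1) scale the sum had an SD of 0.79 in KO cells and 0.80 in wildtype cells, while Rpl22 alone had 3.89 in KO cells and 3.66 in wildtype cells and Rpl22l1 alone 3.09 in KO cells and 0.52 in wildtype cells. In wildtype cells the sum was thus less steady than Rpl22l1.

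Rpl36a, X-linked, and its autosomal copy Rpl36al were both highly expressed. Rpl36a was constant, at 672, 1855 and 6316 RPKM in KO cells, against 1004, 1796 and 3620.2 RPKM in wildtype cells. Rpl36al was at 0, 1165 and 2192 RPKM in KO cells, against 2.56, 767 and 2687 RPKM in wildtype cells, with KO cell 3 at 0 and wildtype cell 17 at 2.56 RPKM. Its median share of the pair was 38.8% in KO cells and 25.4% in wildtype cells, and the summed level never fell below 1371 RPKM in KO cells or 1131 RPKM in wildtype cells.

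Rps27l, a paralogue of Rps27 known as a target of p53, was constant at 625, 2707 and 5802 RPKM in KO cells, against 1329, 2687 and 5227 RPKM in wildtype cells. It held a median of 29.1% of the pair in KO cells and 31.4% in wildtype cells, and exceeded Rps27 only in KO cell 1. Rps27rt, a retrogene copy outside the name pattern, exceeded Rps27 in 10 of 12 KO cells and 9 of 9 wildtype cells. The remaining copies were minor: Rpl7l1 held a median of 0.957% of its pair with Rpl7 in KO cells and 0.661% in wildtype cells, and Rps3a2 held 1.18% of its pair with Rps3a1 in KO cells and 1.15% in wildtype cells. Rps3a2 was nevertheless constant, at 1.77, 20.3 and 58.7 RPKM in KO cells, against 7.22, 13.8 and 20.4 RPKM in wildtype cells.

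**Figure D5:**
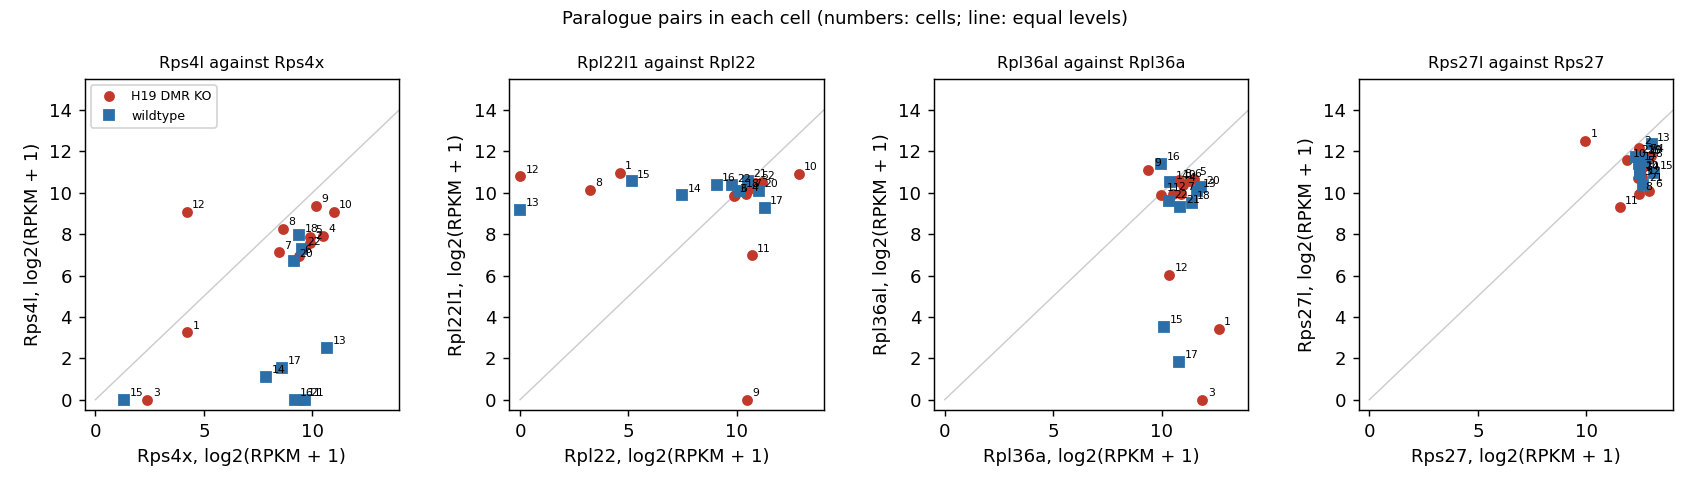
Log2(RPKM + 1) of 4 paralogues (vertical) against their parent genes (horizontal) in KO cells (circles) and wildtype cells (squares), each with its cell number; the line marks equal levels. Rps4l is at 0 in 2 KO and 3 wildtype cells, and no cell is near 0 for both Rpl22 and Rpl22l1 or for both Rpl36a and Rpl36al.

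Of the ribosomal proteins whose names miss the pattern, Fau and Gnb2l1 were at levels of the same order. Fau, a fusion of a ubiquitin-like and a small-subunit protein, was at 1668, 3035 and 7519 RPKM in KO cells, against 1096, 3585 and 4358 RPKM in wildtype cells. Gnb2l1, the scaffold RACK1 on the small subunit, was at 36.7, 2227 and 6866 RPKM in KO cells, against 21.4, 4019 and 5719.5 RPKM in wildtype cells. Both were constant, with differences of -0.036 and -0.067.

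Genes that build ribosomes were a further group. Of 39 ribosome biogenesis genes 27 were compared, with a median difference of -0.86, against -0.36 for all compared genes. Of these, 2 lay at 1 or higher (7.41%, against 11.4% of all compared genes) and 10 at -1 or lower (37.0%, against 28.0%), and 3 were constant. Nop10, of the complex that modifies ribosomal RNA, was at 0, 264 and 997 RPKM in KO cells, against 301, 388 and 1971 RPKM in wildtype cells, a difference of -3.14. Ubtf, a transcription factor of RNA polymerase I, had -2.79, Rrp1, an RNA processing factor, -1.78, and Npm1, the nucleolar chaperone nucleophosmin, -1.62. Without KO cells 1 and 9 these 4 differences were -1.91, -2.51, -1.09 and -1.03. These genes had a far lower level than the members, with a median of 66.9 RPKM over cells in which they were detected. Other genes whose messenger RNAs begin with a pyrimidine tract had a median difference of -0.25 over 13 compared, with 3 at 1 or higher (23.1%) and 2 at -1 or lower (15.4%), and 5 were constant. Their largest differences were in the elongation factor subunits Eef1d at -2.55 and Eef1g at 1.32, the translocation factor Eef2 at -1.44 and the histone chaperone Nap1l1 at 1.77. With medians over cells these differences were -3.25 for Eef1d, 0.27 for Eef1g, -0.30 for Eef2 and 0.24 for Nap1l1.

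Over 21 cells, pairs of constant members had a median Pearson r of 0.146 on the log2 scale, with quartiles of -0.084 and 0.373. Among the 199 constant genes outside the members, those most like the per-cell median of the constant members were Gm8430 (r = 0.725), Ddx5, an RNA helicase (0.687), Eef1a1, the main elongation factor (0.683), Rpl13-ps3 (0.654) and Gm12918 (0.633). All cells share the scaling to a total, and these values are descriptions over 21 cells.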

How the data were processed

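RNA of 22 single T1 pre-HSCs was sequenced with a template-switching method, per the labels' protocols, and 21 cells were used. The authors deposited RPKM per gene and cell, and the submitters' processing notes name Cufflinks 2.1.0 and the mm10 build. Which aligner and annotation were used, and how multi-mapping reads were counted, is not given in the sources used here. Each value is scaled by transcript length and by the total of its cell, so abundant genes lower the rest, and copies can trade reads. Depth, and so counting error per gene, is unknown, and an exact 0 can be a failed estimate. The adult cells and the methylation libraries were not used here.

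From these values the summed share per cell, the log2 ratio of summed large over small subunit, and the difference of mean log2(RPKM + 1), KO minus wildtype, were computed, with a pseudocount of 1 that shrinks differences of weakly expressed genes. To be compared, a gene needed 1 RPKM in 50% or more of the KO or of the wildtype cells. A difference of 1 or more in size was a rule of size, not a test. Python 3.11.15, NumPy 2.4.6, pandas 2.3.3, SciPy 1.17.1 and matplotlib 3.10.9 were used, and the scripts were checked on simulated data. Cells did not share the digits of a value in a member's row (0 of 16909 pairs, at least 5 identical digits). Wildtype cell 19 was left out because its rows were out of step.

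The members and lists were chosen with earlier results of these data known. Genes were named by a rule: the 5 highest of each subunit, the 5 steadiest constant ones, the 8 largest differences in each direction, every paralogue with its parent, members below 1 RPKM in many cells, ribosomal proteins outside the name pattern, up to 4 genes of each of 2 further lists, and the 5 genes most like the members. Rpl12, the stalk genes, the genes of blood disease and growth control, Rpl21, Rpl36 and other members named for their place in a count were added after their values were seen. A few genes that the rule or a count would name are not reported here. Alternatives were other pseudocounts, scalings, filters and summaries, leaving out each cell in turn, and sets of cells.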

Additional observations from a re-analysis of the deposited data

Results flagged for a closer look

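In the 9 wildtype cells, 45 groups of values, those of named genes among them, were examined for a cell far from the others by Dixon's criterion. Of these groups, 13 were flagged, 12 for a low cell. The criterion flags about 1 in 20 groups of normal values by chance. That rate is no yardstick here, because many genes were named from these same values. Rpl10, Rpl8, Rpl15 and Rps9 were named for a high difference, and wildtype cell 13 was the lowest cell for each. The KO group has more than 10 cells and was not examined. Values are log2(RPKM + 1). Wildtype cell 13, with the fewest detected genes of its group, was the low cell in 7 of the 13: Rps19 was at 10.61 there, Rpl13a at 8.44, Rpl7 at 6.32, Rpl15 at 5.27, Rps9 at 4.69, Rpl8 at 2.63 and Rpl10 at 0. Wildtype cell 15 was lowest for Rpl41 at 12.52, Rpl31 at 10.11 and Rps4x at 1.33. Wildtype cell 14 was lowest for Rps29 at 10.83, and wildtype cell 18 for Rpl29 at 8.36. Rpl39 was flagged for a high cell, wildtype cell 21 at 12.27. Flags in a shared cell are not independent of each other.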

How the results depend on the processing

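The differences in share and subunit ratio moved by less than the pooled SD over cells in every setting. The share difference was 3.78 percentage points with the 4 KO cells described next, and the subunit difference was -0.17 in cells with Xist under 1 RPKM and 0.059 as a median log2 over members of each subunit. Of 1645 values of named genes 1601 moved by less than their spread over cells. Leaving out 1 cell cannot move a group mean by as much as that spread, so in those settings the outcome was fixed. Measured this way, neither the named genes nor the share and ratio are shown to be stable. The counts depended on the cells used. Members at -1 or lower were 14. They were 9 with a pseudocount of 10 (against 11.0% of all compared genes) and 7 with wildtype cell 19 as deposited (against 26.5%). They were 3 without KO cells 1 and 9 (against 17.2%), and 2 without cells with fewer than 2000 genes (against 14.1%). Medians over cells gave 1 (against 37.5%). The ratio of mean RPKM gave 0 (against 17.7%), and an equal median in each cell gave 0 (against 6.21%). A further setting kept only the 4 KO cells whose number of detected genes was at or above the wildtype median, with all 9 wildtype cells. It gave 0 as well (against 2.11%). Members at 1 or higher were 3; they were 35 of 82 with an equal median (against 42.2% of all compared genes), 20 with those 4 KO cells (against 59.9%), 15 with wildtype cell 19 (against 12.8%), 7 without cells with fewer than 2000 genes (against 25.9%), 6 without KO cells 1 and 9 (against 20.1%), and 1 with the ratio of means (against 16.2%) or without wildtype cells 13 and 15 (against 7.71%). The median difference of -0.19 was 0.97 with an equal median, 0.57 with the 4 KO cells and 0.41 with wildtype cell 19, where all compared genes had 0.79, 1.28 and -0.30. It also turned positive with medians over cells (0.045), the ratio of means (0.11), without KO cells 1 and 9 (0.11) and without cells with fewer than 2000 genes (0.11). Constant members were 53, and 27 with wildtype cell 19 as deposited. They were 68 in cells with Xist under 1 RPKM and 75 with the 4 KO cells. They were 72 without KO cells 1 and 9 or without cells with fewer than 2000 genes. The settings with wildtype cell 19 above use its rows as deposited, which are out of step. Read 1 row away, that cell gave 15 lower members (against 26.7% of all compared genes) and 3 higher (against 12.4%). The median difference was then -0.26 (against -0.31), and 53 members were constant. Members with a larger SD in KO cells were 71, 40 without KO cells 1 and 9, 34 without cells with fewer than 2000 genes, 77 without wildtype cells 13 and 15 and 62 without these and KO cells 1 and 9.

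Leaving out each cell in turn gave 0.032 to 1.17 percentage points for the share and -0.099 to -0.031 for the subunit ratio. The median difference was -0.36 to -0.058. Lower members numbered 5 to 15. There were 5 without KO cell 1 (against 23.4% of all compared genes) and 15, for example, without KO cell 2 (against 36.0%). Higher members numbered 1 to 4. There was 1 without wildtype cell 13 (against 8.23%), and there were 4, for example, without KO cell 1 (against 14.8%). Constant members numbered 53 to 63, and members with a larger SD in KO cells 54 to 73.

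Signs turned for single genes. The 4 KO cells were chosen for many detected genes while all 9 wildtype cells were kept, so that setting is uneven. With the 4 KO cells, Rpl18 was at 1.05, Rpl27a at 0.84, Rps18 at 0.71, Rps13 at 0.71, Rpl13a at 0.63, Rpl7 at 0.57, Rpl14 at 0.48, Rpl23a at 0.37, Rpl29 at 0.0033, Rrp1 at 1.41, Eef1d at 1.39, Eef2 at 0.068 and Ubtf at 0.055. In cells with Xist under 1 RPKM (5 KO and 7 wildtype cells), Rps18 was at 0.82, Rpl18 at 0.70 and Rpl14 at 0.12. Rpl13a was at 0.14 with an equal median and 0.21 without cells with fewer than 2000 genes. It was at 0.15 with wildtype cell 19 as deposited, out of step, and at 0.15 without KO cells 1 and 9. Rpl7 was at 0.15 without cells with fewer than 2000 genes, 0.37 without KO cells 1 and 9 and 0.068 with the ratio of means. With medians over cells Rps13 was at 0.49 and Rpl23a at 0.091, and with the ratio of means Rpl23a was at 0.27. The cause was not tested. No paired analysis was possible because the cells of the groups share no replicate numbers. Depth is unknown, so a gene listed at 0 cannot be called absent.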
